A study of Homo sapiens with 24 samples.

Results

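Tetraspanins are small proteins that cross the plasma membrane 4 times and gather integrins, immunoglobulin superfamily receptors and signalling enzymes into membrane microdomains. In lymphoid cells they shape antigen receptor signalling, adhesion, migration and the release of extracellular vesicles, and CD37 and CD81 are targets of antibodies tested in B cell cancers. The 10 tetraspanin genes described here, CD9, CD37, CD53, CD63, CD81, CD82, CD151, TSPAN3, TSPAN14 and TSPAN33, were taken by symbol from a table of 25341 named genes, and all 10 were among the 15113 genes that passed the filter on low values (at least 1 TPM in at least 3 libraries). They were listed because CD37, CD9 and CD82 differed widely in level between cell lines in these same libraries. Differences in level between lines are therefore given as a description, with no test.

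Total RNA was sequenced from 4 established multiple myeloma cell lines, MM1R, MM1S, KMS-12-BM and KMS-12-PE, with 3 libraries per group and 24 libraries in all. MM1R and MM1S are sister lines, resistant and sensitive to glucocorticoids, and KMS-12-BM and KMS-12-PE were raised from the bone marrow and a pleural effusion of the same patient. The siIRF4 cells had received by electroporation a pool of siRNAs against IRF4, the transcription factor on which myeloma cells depend, and are labelled 48 hours, whereas the CTRL cells are labelled DMSO at 0 hours and no control siRNA is named. Knock down, siRNA delivery, electroporation, DMSO and time in culture cannot be told apart. Nothing says that the replicates were separate cultures, so p-values measure the spread between these libraries, which may be technical.

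Levels are transcripts per M (TPM), which are scaled by gene length, so levels of different genes can be set side by side. Changes are siIRF4 minus CTRL on the log2(TPM + 1) scale, which understates changes of genes near 1 TPM, with the SE from limma. The threshold for a call was 0.05 for the limma p after Benjamini-Hochberg adjustment over the 15113 genes. IRF4 itself fell by 23.5% (MM1R), 50.4% (MM1S), 38.4% (KMS-12-BM) and 52.6% (KMS-12-PE), with no overlap between siIRF4 and CTRL libraries (exact permutation p = 0.1 in each line, two-sided, the smallest that 3 against 3 libraries allow). Whole reads recovered from the TPM values came to 17.3 to 27.4 M per library, and 9 of 10 plasma cell markers had a mean of at least 1 TPM in every group. The sum of the 10 markers was lower with siIRF4 in each line without overlap, for example 2115 to 2135 TPM in KMS-12-PE CTRL libraries and 1570 to 1586 TPM with siIRF4. This sum includes IRF4, the siRNA target, so part of its fall is built in. The highest marker, MZB1, went up in MM1R (mean 3093 to 3563 TPM) and MM1S (2486 to 2610). It went down in KMS-12-BM (974.7 to 917.3) and little in KMS-12-PE (596.0 to 593.0).

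RefSeq promoter sequences (GRCh38.p14, whereas the TPM values were made on hg19) were found for 6 of the 10 genes, with 19 start sites between them. The 250 bases before the start are shown for the members that moved most with siIRF4 and have an entry, in capitals where a match to the octamer ATTTGCAT, the ETS core AGGAAGT or the E box CAGGTG was found on either strand.
CD53 start 1, chr1:110870960-110871209, plus strand: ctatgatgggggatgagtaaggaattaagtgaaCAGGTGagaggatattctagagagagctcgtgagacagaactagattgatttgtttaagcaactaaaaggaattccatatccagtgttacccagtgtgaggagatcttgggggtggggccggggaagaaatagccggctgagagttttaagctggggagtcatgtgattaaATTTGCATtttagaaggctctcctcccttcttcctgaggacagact
CD53 start 2, chr1:110872898-110873147, plus strand: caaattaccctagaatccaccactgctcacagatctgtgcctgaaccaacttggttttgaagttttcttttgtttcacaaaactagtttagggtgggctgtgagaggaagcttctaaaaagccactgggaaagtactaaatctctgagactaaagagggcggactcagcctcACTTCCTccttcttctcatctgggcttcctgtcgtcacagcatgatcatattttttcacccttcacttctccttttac
TSPAN33, chr7:129144457-129144706, plus strand: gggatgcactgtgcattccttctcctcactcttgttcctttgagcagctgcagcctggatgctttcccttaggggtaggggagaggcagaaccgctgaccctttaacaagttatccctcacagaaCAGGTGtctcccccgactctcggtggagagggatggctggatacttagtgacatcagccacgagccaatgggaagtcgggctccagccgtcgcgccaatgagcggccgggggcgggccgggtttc
CD82, chr11:44565413-44565662, plus strand: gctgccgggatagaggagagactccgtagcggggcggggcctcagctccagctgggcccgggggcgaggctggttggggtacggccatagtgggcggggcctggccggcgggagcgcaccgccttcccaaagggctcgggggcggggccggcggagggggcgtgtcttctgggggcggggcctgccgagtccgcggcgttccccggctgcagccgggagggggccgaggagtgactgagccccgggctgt
CD9 start 2, chr12:6200150-6200399, plus strand: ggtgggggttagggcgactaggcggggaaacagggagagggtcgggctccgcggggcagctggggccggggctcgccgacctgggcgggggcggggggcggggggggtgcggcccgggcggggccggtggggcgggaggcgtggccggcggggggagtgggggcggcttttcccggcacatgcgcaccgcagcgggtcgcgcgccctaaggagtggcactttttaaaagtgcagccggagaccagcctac
The CD82 window was 77.2% G and C, with 26 CpG pairs. CD9 has 4 starts in the table, at 52.8%, 76.8%, 76.8% and 44.8% G and C with 10, 28, 29 and 1 CpG pairs, of which the second is shown as an example of a window rich in GC boxes, and the third held an E box. Those of CD53 were 45.2% and 44.0%, with 3 and 2 CpG pairs, against a median of 58.0% over all 35116 windows of this length.

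The first CD53 window held the octamer, a motif of POU factors of B cells, 46 to 39 bases before the start, and an E box at 217 to 212 bases. Its second window held the ETS core on the reverse strand at 78 to 72 bases. The TSPAN33 window held an E box at 125 to 120 bases. Of all windows, 1.63% held the octamer, 7.01% the ETS core and 17.5% the E box. The ETS-IRF composite element, searched as GGAA and GAAA with 2 bases of any kind between them, was found in 2.41% of all windows. The interferon response element was searched as GAAA and GAAA with the same gap (3.02%), and the NF-kB site as GGGA and TTCC with the same gap (1.4%). These 3 matched none of the members' 19 windows, which says only that these letters are not in these windows. The GC box GGGCGG, found in 42.6% of all windows and left in lower case above, matched 13 of the 19, with 4 matches for CD82 and 6 for the CD9 window shown. CD37, CD81, CD151 and TSPAN3 are named here without a sequence.

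In CTRL cells the tetraspanin that dominated was CD9 in MM1R, MM1S and KMS-12-BM, and CD81 in KMS-12-PE. Summed over the 33 tetraspanin genes listed, the CTRL level was 1688 ± 34.4 TPM for MM1R, 1626 ± 25.9 for MM1S, 2001 ± 10.0 for KMS-12-BM and 963.8 ± 51.4 for KMS-12-PE (SD, n = 3). The 10 members gave 84.3 to 92.8% of this sum in the 8 groups. CD9 alone gave 38.9%, 42.3% and 32.0% in the first 3 lines and 0.758% in KMS-12-PE, where CD81 gave 35.0%. With siIRF4 the sum was 2083 ± 77.4 TPM for MM1R, 2317 ± 30.3 for MM1S, 2258 ± 79.9 for KMS-12-BM and 1005 ± 20.5 for KMS-12-PE. The libraries did not overlap between conditions in the first 3 lines and did in KMS-12-PE.

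**Figure D1:**
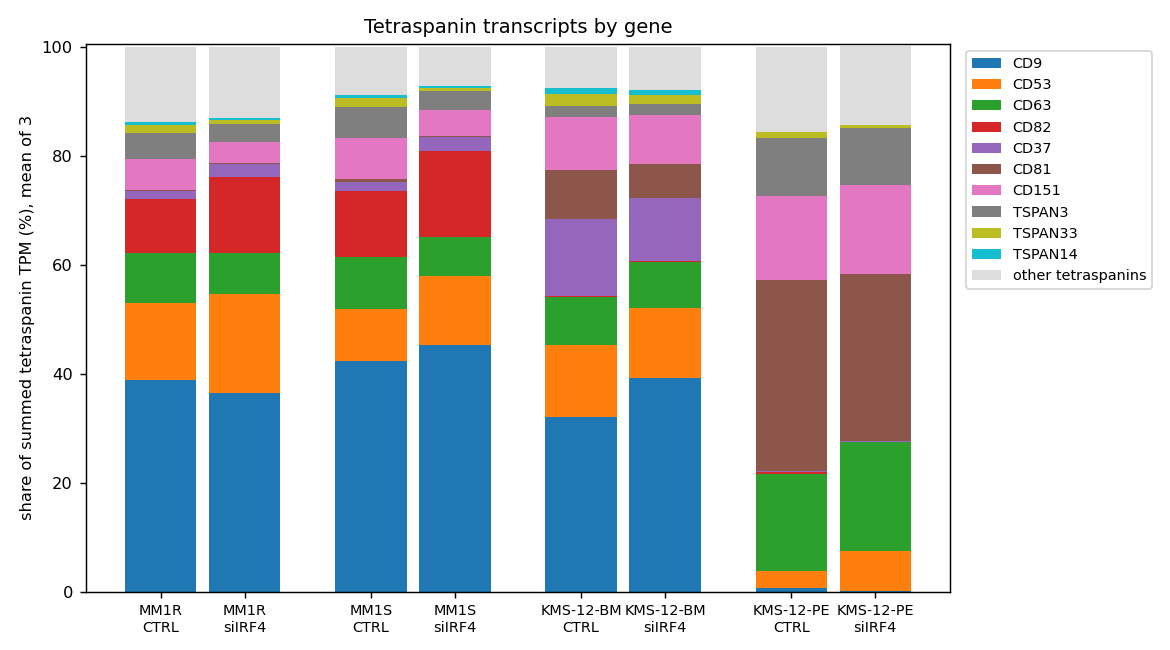
Share of the summed TPM of 33 tetraspanin genes (vertical axis, percent, mean of 3 libraries) held by each of the 10 members and by the other 23 together, for CTRL and siIRF4 of each line. CD9 is the largest block in MM1R, MM1S and KMS-12-BM, at 32.0 to 45.2%, and is hardly visible in KMS-12-PE, where CD81 holds 35.0% in CTRL and 30.7% with siIRF4.

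Between lines, 5 members spanned a wide range of CTRL levels. The highest line's mean was 337 times the lowest for CD37, 97.8 times for CD82, 94.5 times for CD9, 94.3 times for CD81 and 70.9 times for TSPAN14. It was 9.23 times for CD53, 4.99 times for TSPAN33, 2.44 times for TSPAN3, 2.03 times for CD151 and 1.14 times for CD63. CD37, CD53, TSPAN3, TSPAN14 and TSPAN33 had both their highest and their lowest level in the KMS-12 pair of sister lines. In the order of CTRL levels, neighbouring lines overlapped for CD9 (MM1S, MM1R and KMS-12-BM), CD37 (MM1S and MM1R), CD63 (KMS-12-BM with KMS-12-PE, and MM1R with MM1S), TSPAN14 (MM1R and MM1S) and TSPAN33 (MM1S and MM1R). All other neighbours were apart.

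**Figure D2:**
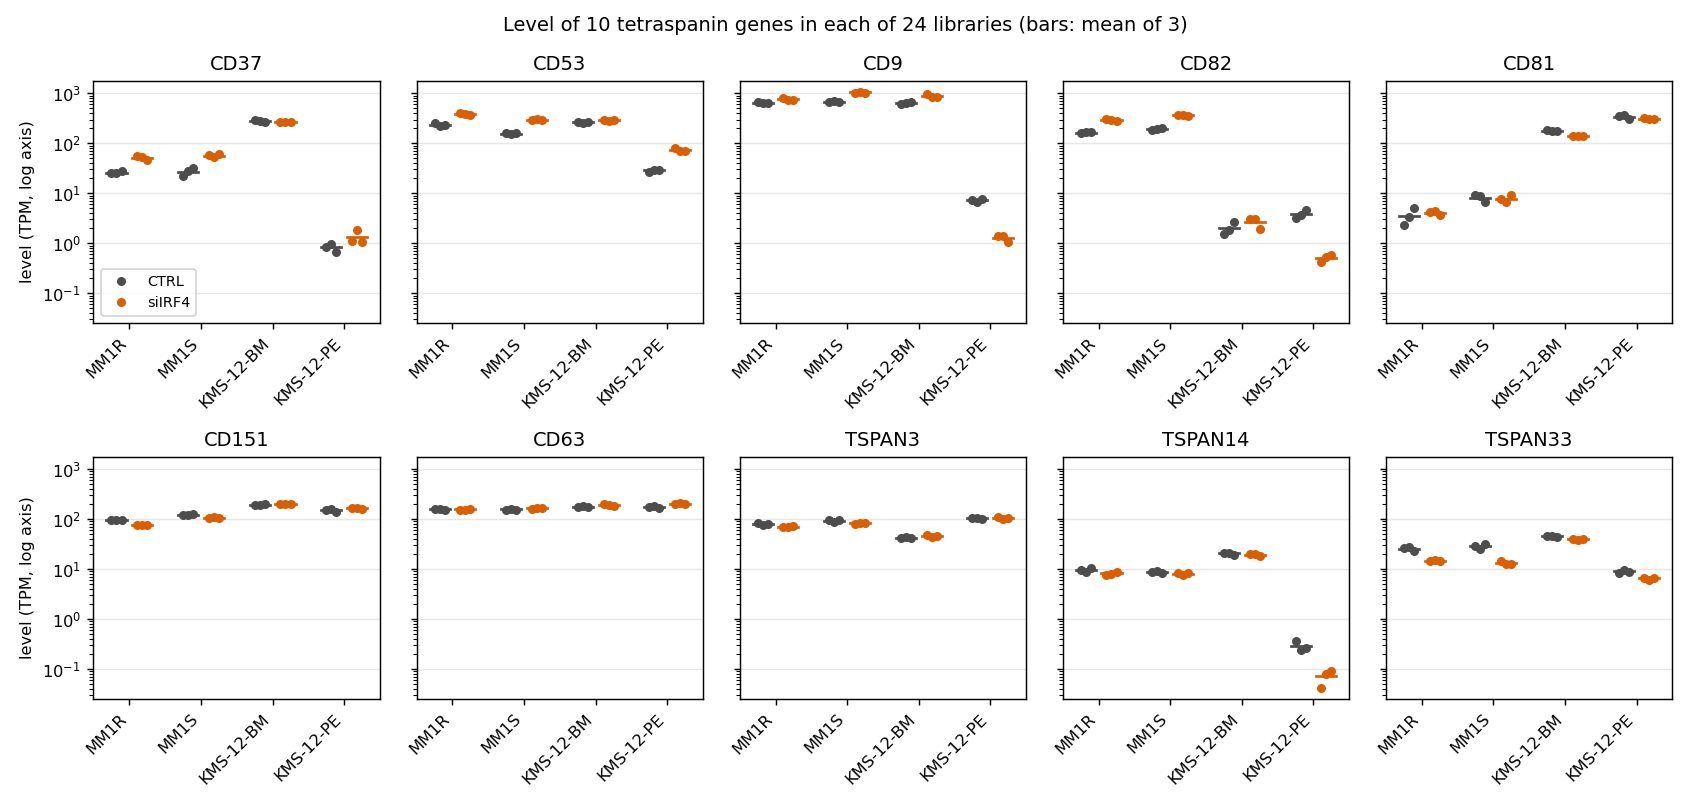
Level of each of the 10 members (TPM, log axis) in each of the 24 libraries, grouped by line, CTRL in grey and siIRF4 in orange, with horizontal bars at the mean of 3. CD37, CD9, CD82, CD81 and TSPAN14 differ by over 70 times between the highest and the lowest line in CTRL, whereas CD63 stays between 152.9 and 212.3 TPM in all libraries.

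On average over the 4 lines 8 of the 10 members were called, 3 higher (CD37, CD53 and CD63) and 5 lower (CD9, CD151, TSPAN3, TSPAN14 and TSPAN33). Of all genes tested 59.6% were called, 33.1% higher and 26.5% lower, so the members' count is near a background in which most genes moved. The members' median change was -0.07, against 0.02 over all genes. An effect that differed among the 4 lines was called for 8 members, all but CD81 and TSPAN14, against 53.3% of all genes. TSPAN14 was called with a pseudocount of 0.1 (limma adjusted p = 2.67e-05) and with voom (0.000175), and CD81 without MM1R CTRL replicate 3 (0.00435).

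By line, 8 members were called in MM1R (4 higher, 4 lower), against 46.2% of all genes, 25.0% higher and 21.2% lower. In MM1S 7 were called (4 higher, 3 lower), against 50.3%, 29.1% and 21.1% of all genes. KMS-12-PE had 8 calls (4 higher, 4 lower), against 38.1%, 15.9% and 22.2%. KMS-12-BM had 2, both higher, against 17.5%, 11.4% and 6.09%. None was lower there, although CD81 and TSPAN33 had an unadjusted limma p of 0.0284 and 0.0229, and limma with voom on the recovered reads called both lower. Over all genes 1730 were higher and 920 lower in KMS-12-BM, a split that became 1382 and 1472 under median-of-ratios scaling. The members' median change was 0.08 for MM1R, 0.02 for MM1S, 0.07 for KMS-12-BM and -0.06 for KMS-12-PE, against 0.03, 0.04, 0.04 and -0.02 over all genes.

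**Figure D3:**
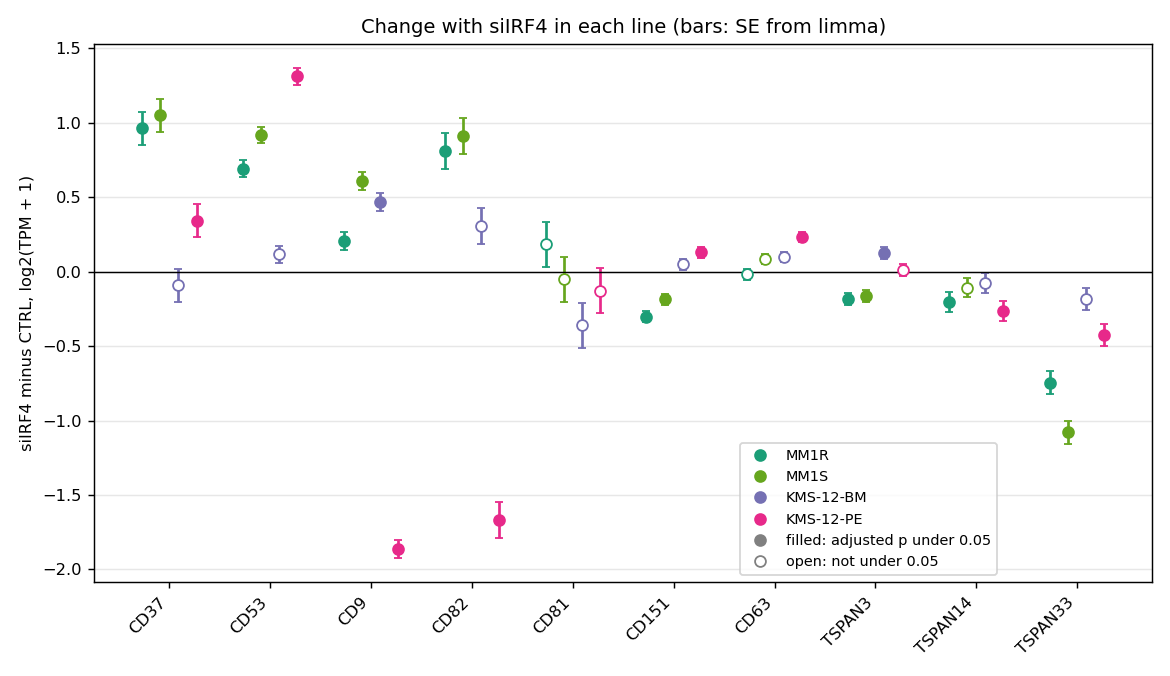
Change with siIRF4 of each member in each line (vertical axis, siIRF4 minus CTRL on the log2(TPM + 1) scale, bars the SE), filled where the adjusted p was under 0.05. CD37, CD53 and CD82 lie high in both MM1 lines, TSPAN33 lies below 0 in every line, and CD9 and CD82 lie at -1.86 and -1.67 in KMS-12-PE but above 0 elsewhere.

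CD53, a tetraspanin of leukocytes linked to CD45 and L-selectin, rose in 3 of the 4 lines. In KMS-12-PE its CTRL libraries held 27.3, 29.65 and 29.38 TPM and its siIRF4 libraries 80.17, 69.8 and 69.23. In MM1S the values went from 158.2, 153.3 and 158.6 to 291.1, 306.9 and 291.6. All siIRF4 libraries thus lay far above all CTRL libraries, and KMS-12-PE, the line with the least CD53, had the largest ratio of means, 2.54. MM1R went from 256.9, 221.4 and 229.6 to 397.7, 382.9 and 363.6 TPM. KMS-12-BM went from 267.3, 259.7 and 269.8 to 290.7, 282.0 and 290.8 TPM. The groups did not overlap in any line, but in KMS-12-BM the shift was small.

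The CD53 change was 1.31 ± 0.054 in KMS-12-PE (limma adjusted p = 9.06e-14), 0.92 ± 0.054 in MM1S (2.21e-11) and 0.69 ± 0.054 in MM1R (1.49e-09). In KMS-12-BM it was 0.12 ± 0.054 and was not called (limma adjusted p = 0.152). The effect in KMS-12-PE exceeded that in KMS-12-BM by 1.20 ± 0.076 (limma adjusted p = 5.34e-10). LRIF1, whose locus overlaps CD53 in RefSeq, reached at most 70.5 TPM. The strandedness of the counting is not given in the sources used here, so reads of the 2 genes cannot be told apart where they overlap.

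CD37, a leukocyte tetraspanin linked to integrin signalling and to PI3K, rose in both MM1 lines, with ratios of the means of 1.99 and 2.09. Its MM1R libraries went from 25.19, 25.05 and 27.6 TPM in CTRL to 54.84, 52.95 and 46.98 with siIRF4. Those of MM1S went from 22.39, 27.8 and 31.55 to 57.32, 53.17 and 60.37. The conditions were well apart in both lines, and siIRF4 still left CD37 far below KMS-12-BM, at 262.9 to 292.2 TPM in its 6 libraries. The change was 0.96 ± 0.11 in MM1R and 1.05 ± 0.11 in MM1S (limma adjusted p = 6.65e-07 and 1.66e-07). In KMS-12-BM it was -0.09 ± 0.11 and was not called (limma adjusted p = 0.647). The MM1 lines exceeded the KMS-12 lines by 0.88 ± 0.11 (limma adjusted p = 2.31e-06).

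KMS-12-PE held hardly any CD37, with 8 to 11 recovered reads per CTRL library and 12 to 26 with siIRF4. The levels were 0.8615, 0.9732 and 0.6795 TPM in CTRL and 1.128, 1.885 and 1.049 with siIRF4. The limma change of 0.34 ± 0.11 was called (adjusted p = 0.0205), but it was lost without CTRL replicate 3 (0.0963), without siIRF4 replicate 2 (0.161), in a fit of that line alone (0.104) and with voom (0.233). The genes SLC6A16 and TEAD2, which overlap CD37 in RefSeq, reached at most 0.815 and 2.09 TPM.

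Since CD37 and CD53 are leukocyte genes, markers of other blood cells are given beside them. Of 8 B cell markers 2 reached 1 TPM in MM1R and in MM1S, led by CR2, and their sum lay between 27.2 and 31.97 TPM in MM1R CTRL and between 43.92 and 49.71 with siIRF4. The same sum lay between 27.35 and 29.39 TPM in MM1S CTRL and between 37.3 and 40.34 with siIRF4. The defining marker MS4A1 was at 0 in CTRL of both MM1 lines. The myeloid sum, nearly all S100A9 in MM1R, lay between 22.22 and 27.24 TPM in MM1R CTRL and between 92.24 and 98.82 with siIRF4. It overlapped between conditions in MM1S. Of 9 T and NK cell markers in KMS-12-PE, 3 reached 1 TPM in CTRL and 4 with siIRF4, led by CD3E, with a sum of 21.68 to 24.13 TPM and 39.64 to 45.15 TPM, and CD3D, TRAT1 and KLRD1 at 0 with siIRF4. The part of these markers in the rises of CD37 and CD53 was not tested.

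CD82, also called KAI1 and known as a suppressor of cell migration, was a gene of the MM1 lines. It went from 160.9, 166.4 and 167.5 TPM to 300.4, 288.5 and 281.7 in MM1R, and from 184.3, 197.6 and 203.4 to 362.3, 377.1 and 360.6 in MM1S. All siIRF4 libraries lay above all CTRL libraries in these 2 lines. The change was 0.81 ± 0.12 and 0.91 ± 0.12 (limma adjusted p = 1.11e-05 and 2.19e-06), and the difference between the 2 sister lines was 0.10 ± 0.17 (0.837). In KMS-12-BM, at 1.562 to 3.091 TPM, the conditions overlapped, and the change of 0.31 ± 0.12 was not called (limma adjusted p = 0.0814). The average over the 4 lines was 0.09 ± 0.059 (limma adjusted p = 0.204) and became 0.68 ± 0.068 (4.88e-08) without KMS-12-PE.

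CD9, which pairs with beta 1 integrins and immunoglobulin superfamily proteins in adhesion and membrane fusion, rose in 3 lines from an already high level. In MM1S it went from 662.9, 714.9 and 685.2 TPM to 1038, 1065 and 1039. In KMS-12-BM it went from 624.8, 638.6 and 659.7 to 958.9, 847.2 and 860.1. In MM1R it went from 677.9, 656.3 and 637.0 to 808.7, 744.5 and 722.3. The conditions did not overlap in any of the 3, with the smallest gap in MM1R. The CD9 change was 0.61 ± 0.06 for MM1S, 0.47 ± 0.06 for KMS-12-BM and 0.21 ± 0.06 for MM1R (limma adjusted p = 3.38e-08, 9.88e-06 and 0.00757).

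The CD9 call in MM1R was lost without siIRF4 replicate 1 (limma adjusted p = 0.0573). The effect in MM1S exceeded that in MM1R by 0.40 ± 0.085 (limma adjusted p = 0.0135), a difference lost with a pseudocount of 0.1 (0.0701). In the main fit CD9 was the 1 member called for a different effect between the MM1 sister lines, against 2.47% of all genes. The TSPAN33 difference of -0.34 ± 0.11 was not called there (limma adjusted p = 0.0958). It was called with voom (0.0401) and without MM1S CTRL replicate 2 (0.0272). In the average over 4 lines CD9 was lower, at -0.14 ± 0.03 (limma adjusted p = 0.000304). Without KMS-12-PE the average was 0.43 ± 0.035 (1.05e-09), so the sign of the average rested on that line.

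KMS-12-PE stood apart in CD9, CD82 and TSPAN14, each of which was low in CTRL and lower with siIRF4. CD9 went from 7.498, 6.611 and 7.713 TPM to 1.423, 1.372 and 1.068. CD82 went from 3.23, 3.707 and 4.558 TPM to 0.4146, 0.5329 and 0.593. TSPAN14 went from 0.3647, 0.2365 and 0.2649 TPM to 0.04189, 0.08076 and 0.08987. None of the 3 had overlapping conditions, but few reads lay behind them: 79 to 96 in CTRL and 14 to 20 with siIRF4 for CD9, 51 to 73 and 6 to 10 for CD82, and 12 to 19 and 2 to 5 for TSPAN14.

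The change in KMS-12-PE was -1.86 ± 0.06 for CD9, -1.67 ± 0.12 for CD82 and -0.27 ± 0.066 for TSPAN14 (limma adjusted p = 1.59e-15, 9.64e-10 and 0.00299). TSPAN14 was under 1 TPM in every KMS-12-PE library, so it passed the filter on low values through the other lines alone. Its SE is shared with those lines, where it had more reads, so its p-value here is only a description. The difference from KMS-12-BM was -2.32 ± 0.085 for CD9 and -1.97 ± 0.17 for CD82 (limma adjusted p = 1.47e-13 and 5.77e-08). For TSPAN14 it was -0.19 ± 0.093 and was not called (limma adjusted p = 0.157), but it was -1.10 ± 0.17 with a pseudocount of 0.1 (7.25e-05) and -1.78 ± 0.45 with voom (0.0041). With CD53 these were the 3 members whose effect differed between the KMS-12 lines, against 23.0% of all genes.

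As a share of the CTRL mean of the line with the most, CD9 in KMS-12-PE went from 1.06 to 0.187%, CD82 from 1.96 to 0.263% and TSPAN14 from 1.41 to 0.346%. ITGB7, an integrin at 15340 TPM in MM1R CTRL, went from 0.402 to 0.0645%, and CCND2, a cyclin of the MM1 lines, from 0.585 to 0.0852%. CD37, which is highest in the sister line KMS-12-BM, went from 0.297 to 0.48%. By thresholds chosen after these values were seen, 73 tested genes had at least 100 TPM in CTRL of another line and at most 3% of that level in KMS-12-PE CTRL. Of the 53 that were highest in an MM1 line, CD9 and CD82 among them, 40 were called lower with siIRF4 in KMS-12-PE and 3 higher. Of the 20 that were highest in KMS-12-BM, CD37 among them, 5 were called lower and 6 higher. Over all genes tested, 22.2% were called lower and 15.9% higher in KMS-12-PE. The 73 genes could pass the filter on low values through the other line alone, so these counts are a description. Whether traces of RNA from other lines made part of these low values was not tested.

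**Figure D4:**
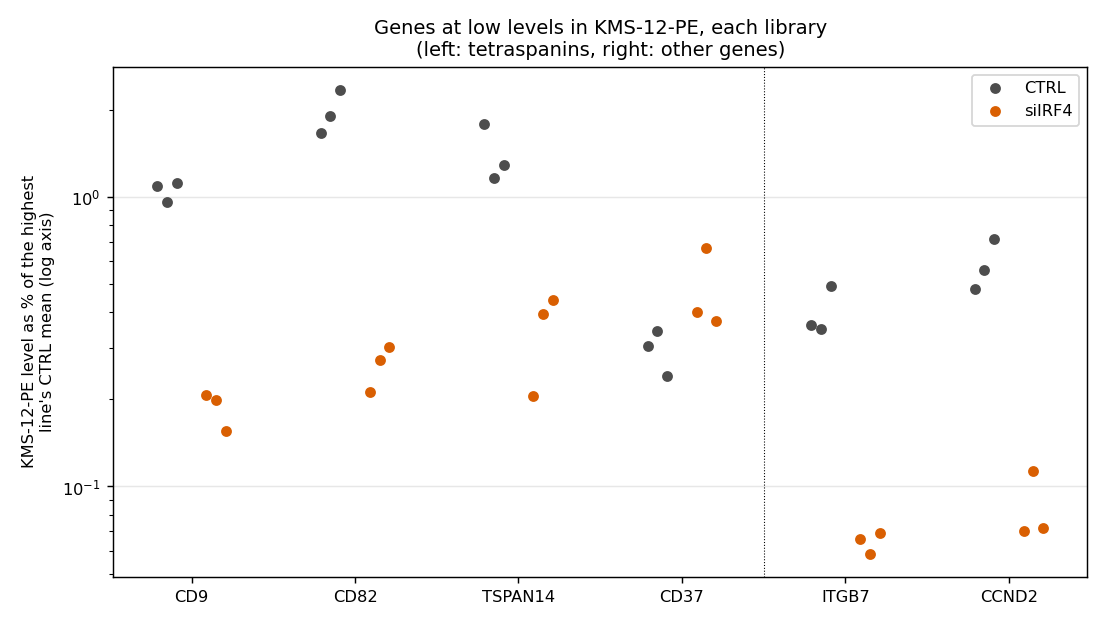
Level in each KMS-12-PE library as a percentage of the CTRL mean of the line with the most (log axis), CTRL in grey and siIRF4 in orange, for 4 tetraspanins and for ITGB7 and CCND2. CD9, CD82, TSPAN14, ITGB7 and CCND2 lie lower with siIRF4 in all 3 libraries, while CD37 goes from 0.297 to 0.48% on average.

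Markers of other cell types also moved in KMS-12-PE. All 8 stromal markers had a mean of at least 1 TPM in CTRL and 6 with siIRF4, and their sum lay between 80.0 and 115.4 TPM in CTRL libraries and between 38.04 and 47.06 with siIRF4, with none at 0. Of 8 myeloid markers 2 reached 1 TPM in both conditions, led by S100A9, and the sum lay between 147.2 and 183.3 TPM in CTRL and between 36.35 and 51.46 with siIRF4. MPO was at 0 in CTRL, and LYZ and MPO with siIRF4. Of 8 epithelial markers 5 reached 1 TPM in CTRL and 4 with siIRF4, led by EPCAM, with a sum of 227.2 to 248.4 TPM in CTRL and 165.4 to 186.2 with siIRF4, and KRT19 at 0 with siIRF4, although EPCAM itself went from 129.1 to 138.6 TPM. The stromal sum also fell in KMS-12-BM, but there only 2 of the 8 markers reached 1 TPM and COL6A3 made most of the sum. In KMS-12-BM it lay between 70.61 and 75.19 TPM in CTRL and between 44.38 and 46.34 with siIRF4. The mean of COL6A3 alone went from 67.09 to 40.44 TPM there. In MM1R and MM1S the stromal sum overlapped between conditions. The part of these markers in the falls of CD9, CD82 and TSPAN14 in KMS-12-PE was not tested. In bulk samples fewer cells of a type and less RNA per cell cannot be told apart.

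CD81, a tetraspanin of B cell signalling and migration, was a gene of the KMS-12 lines. CTRL libraries held 345.4, 364.9 and 303.0 TPM in KMS-12-PE and 184.8, 179.7 and 178.2 in KMS-12-BM, against 2.34 to 5.059 in MM1R and 6.684 to 9.133 in MM1S. The 2 pairs of sister lines were thus far apart. CD81 was 1.06% of its KMS-12-PE level in MM1R CTRL and 2.42% in MM1S CTRL, where CCND1, a cyclin of the KMS-12 lines, stood at 0.515 and 1.42% of its KMS-12-BM level. Whether RNA from other lines adds to CD81 in the MM1 lines was not tested.

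With siIRF4, CD81 in KMS-12-BM held 139.0, 140.0 and 143.0 TPM, all below the CTRL libraries. The fit over all 24 libraries did not call this change of -0.36 ± 0.15 (limma adjusted p = 0.112), with an SE that it shared with the scattered low values of MM1R CTRL. A fit of KMS-12-BM alone called it (limma adjusted p = 0.000968), as did voom (1.74e-06), and so did the fit over all lines without MM1R CTRL replicate 1 (0.0359) or replicate 3 (0.0242). In the other 3 lines CD81 overlapped between conditions. No difference of its effect between lines was called (limma adjusted p = 0.18 over the 4 lines). Without MM1R CTRL replicate 3, however, a rise in MM1R of 0.41 ± 0.12 (limma adjusted p = 0.00973) and an MM1 minus KMS-12 difference of 0.42 ± 0.11 (0.00422) were called. Voom called a difference of 0.29 ± 0.07 between KMS-12-PE and KMS-12-BM (adjusted p = 0.0031). The antisense gene CD81-AS1, which overlaps CD81, reached at most 1.59 TPM.

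TSPAN33, a tetraspanin of activated B cells that belongs to the TspanC8 group of ADAM10 partners, was lower with siIRF4 in every line. MM1S went from 29.39, 25.04 and 31.8 TPM to 14.15, 12.36 and 12.57, and MM1R from 25.91, 27.07 and 23.15 to 14.56, 15.23 and 14.33. KMS-12-PE went from 8.51, 9.688 and 8.921 to 6.764, 5.995 and 6.634 TPM, and KMS-12-BM from 46.51, 45.14 and 43.61 to 39.88, 38.19 and 40.68. No line had overlapping conditions, and the drop was steepest in the MM1 lines. The change was -1.08 ± 0.075 in MM1S, -0.75 ± 0.075 in MM1R and -0.43 ± 0.075 in KMS-12-PE (limma adjusted p = 1.96e-10, 5.26e-08 and 0.000107). In KMS-12-BM it was -0.18 ± 0.075 and was not called (limma adjusted p = 0.0963). The MM1 lines fell more than the KMS-12 lines, with a difference of -0.61 ± 0.075 (limma adjusted p = 9.87e-07).

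TSPAN14, another TspanC8 member that carries ADAM10 to the cell surface, was highest in KMS-12-BM, at 18.43 to 21.27 TPM over its 6 libraries. In MM1R it fell from 9.561 ± 0.789 to 8.152 ± 0.465 TPM (SD, n = 3), a change of -0.21 ± 0.066 (limma adjusted p = 0.0144). That call was lost with a pseudocount of 0.1 (0.13) in a fit of MM1R alone (0.0631), without CTRL replicate 3 (0.0947) and without siIRF4 replicate 1 (0.0682). MM1S and KMS-12-BM gave -0.11 ± 0.066 and -0.08 ± 0.066, neither called (limma adjusted p = 0.195 and 0.484).

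CD151, the partner of laminin-binding integrins, and TSPAN3, a tetraspanin of broad expression, moved little, and both fell in the MM1 lines. CD151 fell in MM1R from 93.6, 96.35 and 95.78 TPM to 77.77, 77.72 and 75.45, a change of -0.30 ± 0.037, and in MM1S by 0.19 ± 0.037 on the log2 scale (limma adjusted p = 7.65e-07 and 0.000238). TSPAN3 fell by 0.19 ± 0.04 in MM1R and by 0.16 ± 0.04 in MM1S (limma adjusted p = 0.000634 and 0.00171). In both genes the siIRF4 libraries of the MM1 lines lay below all CTRL libraries. In KMS-12-BM CD151 changed by 0.05 ± 0.037 with no call (limma adjusted p = 0.406), and in KMS-12-PE TSPAN3 by 0.01 ± 0.04 with no call (0.907). In KMS-12-PE CD151 rose by 0.13 ± 0.037 (limma adjusted p = 0.00773, lost without CTRL replicate 3 at 0.068 and in a fit of that line alone at 0.0924). In KMS-12-BM TSPAN3 rose by 0.12 ± 0.04 (limma adjusted p = 0.0354, lost under median-of-ratios scaling at 0.136 and in a fit of that line alone at 0.098). That TSPAN3 call was also lost without CTRL replicate 1 or 3 or siIRF4 replicate 1 or 3 of KMS-12-BM (0.0841 to 0.15). The average of TSPAN3 over the 4 lines, -0.05 ± 0.02 (limma adjusted p = 0.0246), was lost without siIRF4 replicate 2 of KMS-12-BM (0.0506) or of KMS-12-PE (0.0521). The MM1 minus KMS-12 difference was -0.34 ± 0.037 for CD151 and -0.24 ± 0.04 for TSPAN3 (limma adjusted p = 2.14e-07 and 4.32e-05).

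CD63, a tetraspanin of late endosomes and exosomes, was the steadiest member, between 152.9 and 212.3 TPM in all 24 libraries. It rose in KMS-12-PE from 172.0, 178.6 and 166.0 TPM to 196.9, 212.3 and 198.0, a change of 0.23 ± 0.036 (limma adjusted p = 3.15e-05). The other 3 lines gave -0.02 to 0.10 and no call. The MM1 minus KMS-12 difference was -0.13 ± 0.036 (limma adjusted p = 0.00531). Over the members, 7 had an effect that differed between MM1 and KMS-12 lines, against 44.9% of all genes: CD37, CD82 and CD9 in one direction and CD63, CD151, TSPAN3 and TSPAN33 in the other.

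For each member the 2 genes with the most similar pattern were taken by Pearson's r over the 24 libraries, among 11089 genes with a mean of at least 5 TPM in some group. These values describe the same libraries, which fall into 4 lines, so high values of r are common. CD82 was most like BARX2 and MAF (r = 0.9969 and 0.9967), both transcription factor genes, and MAF went from 437.9 to 723.4 TPM in MM1R and from 367.7 to 696.2 in MM1S. CD37 was most like the cytokine receptor IL21R (0.9944), and CD53 like MAGEF1 (0.9882) and CD79B (0.9816), a B cell receptor subunit. CD9 was most like CKAP4 (0.9955) and COX7A2 (0.9937), and COX7A2 went from 5.021 to 1.382 TPM in KMS-12-PE. CD81 was most like ANAPC5 (0.997), TSPAN14 like the repressor gene BHLHE41 (0.9972), TSPAN3 like RAPGEF5 (0.9907), CD151 like BLMH (0.9834) and TSPAN33 like TMEM54 (0.971). The best r of CD63 was lowest, at 0.9443 with DCAKD.

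Counts of genes called on average in the lists that follow stand beside 33.1% higher and 26.5% lower over all genes. Among the other 23 tetraspanins listed, 12 passed the filter, and on average 4 were higher and 4 lower, with a median change of 0.10 against 0.02 over all genes. TSPAN31 rose in MM1R, MM1S and KMS-12-BM (0.57 ± 0.066, 0.76 ± 0.066 and 0.41 ± 0.066), and TSPAN5, a TspanC8 member, fell in MM1R and MM1S (-0.57 ± 0.1 and -0.41 ± 0.1). TSPAN13 fell in KMS-12-PE from 44.31 to 25.39 TPM. TSPAN7 was the highest of these genes, with CTRL means of 140.0 TPM for MM1R and 54.0 TPM for MM1S, and below 1 TPM for the KMS-12 lines.

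The 14 integrin partners had 11 genes tested, of which 1 was higher and 3 lower on average (median 0.04). ITGAL, the alpha chain of LFA-1, rose in all 4 lines, from 84.77 to 119.5 TPM in MM1R and from 7.659 to 15.87 in KMS-12-PE. ITGA4, the alpha chain of VLA-4, fell in KMS-12-PE from 134.6 to 86.85 TPM, and also in MM1R and MM1S (-0.22 ± 0.056 and -0.29 ± 0.056). ITGA6, a laminin receptor chain, fell in MM1R from 27.67 to 18.26 TPM and in MM1S from 26.7 to 16.68 TPM. In KMS-12-PE ITGA6 fell from 2.961 to 1.098 TPM. Neither gene was called in KMS-12-BM. The average of ITGB7 was lower through KMS-12-PE, where it fell from 61.65 to 9.898 TPM.

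Of 20 immunoglobulin superfamily and B cell partners 14 were tested, 7 higher and 3 lower on average (median 0.07). IFITM1, an interferon-induced partner of CD81, rose in KMS-12-PE from 19.96 to 227.2 TPM, a change of 3.45 ± 0.18, and in MM1R and MM1S by 0.93 ± 0.18 and 0.63 ± 0.18. CXCR4, the chemokine receptor of marrow homing, rose in KMS-12-PE from 131.2 to 286.8 TPM. SDC1, the plasma cell marker CD138, fell in MM1R from 737.6 to 564.9 TPM.

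The ADAM10 axis of the TspanC8 group, with the proteases ADAM10 and ADAM17 and their substrates, had 12 of 16 genes tested, 4 higher and 5 lower on average (median -0.04). Their effect differed between MM1 and KMS-12 lines for 9 of the 12, 8 of them higher in MM1. Over all genes 44.9% differed in either direction and 25.0% were higher. The largest differences were those of APP and BTC, which were low in the KMS-12 lines. APP fell in KMS-12-PE from 6.475 to 1.285 TPM. BTC was at 0 in CTRL of both KMS-12 lines and could not fall there. CDH2, also higher in MM1, was at 0.07151 TPM (KMS-12-BM) and 0.6227 TPM (KMS-12-PE) in CTRL. CXCL16 and CADM1, higher in MM1 too, had means of at least 5.608 TPM in every group. The substrate CXCL16 rose in MM1R from 11.16 to 18.31 TPM and in MM1S from 28.78 to 45.61 TPM. In the KMS-12 lines CXCL16 went in opposite directions. It fell in KMS-12-BM from 14.95 to 11.52 TPM and rose in KMS-12-PE from 13.36 to 17.22 TPM. CADM1 fell in both KMS-12 lines, from 41.58 to 31.26 TPM (KMS-12-BM) and 11.77 to 5.608 TPM (KMS-12-PE).

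Of the 30 genes of vesicle and endosome sorting 29 were tested, 11 higher and 5 lower on average (median 0.03). SDCBP, the syntenin that links CD63 and syndecans to exosomes, rose in MM1R from 74.88 to 110.6 TPM and in MM1S from 95.27 to 134.2 TPM. RAB27A, a GTPase of exosome release, fell in MM1R from 55.98 to 32.11 TPM and in MM1S from 87.16 to 43.58 TPM, and changed by 0.00 ± 0.051 in KMS-12-BM. ANXA2 fell in all 4 lines.

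All 22 palmitoyl transferases and thioesterases, enzymes that add or remove the lipid through which tetraspanins cluster, were tested, 7 higher and 6 lower on average (median 0.00). Of these, ZDHHC12 fell in MM1S from 106.4 to 77.6 TPM. Of 21 signalling proteins linked to CD37, CD53, CD81 and CD82, 18 were tested, 9 higher and 4 lower (median 0.08). PIK3R1, PIK3CD and VAV1, of the PI3K pathway and its neighbours, rose in MM1R, MM1S and KMS-12-PE and were not called in KMS-12-BM. PTPN6, the phosphatase SHP-1 that CD37 engages, rose in both MM1 lines. In KMS-12-BM it fell from 293.9 to 209.0 TPM. Its KMS-12-PE mean fell from 43.12 to 26.4 TPM.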

How the data were processed

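The deposited values are TPM per gene and library, made by the authors; per the submitters' processing notes STAR, featureCounts, FastQC and MultiQC were used on hg19, with no versions. The sources used here do not give the annotation, the gene lengths or the strandedness. Rows with a date in place of a symbol (28) and a blank row (1) were dropped. Dividing each library by 1 factor turned its TPM into whole reads (tolerance 0.02 reads) for genes that hold at least 99.96% of its TPM.

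All 24 libraries entered 1 limma fit (limma 3.58.1, R 4.3.3) of 8 group means on log2(TPM + 1) for genes with at least 1 TPM in at least 3 libraries, with a trended, robust prior and two-sided Benjamini-Hochberg adjusted p-values within each comparison. Comparisons were siIRF4 against CTRL per line and on average, and differences of these effects. The procedures were tested on simulated data. Python 3.11.15, numpy 2.4.6, pandas 2.3.3, scipy 1.17.1 and matplotlib 3.10.9 made summaries, exact tests and plots.

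The members, the 7 partner lists, the 9 marker lists and the tests were chosen with earlier results of these data known. Named list genes came from those that rose or fell most on average among the genes called, or had the largest MM1 minus KMS-12 difference called. TSPAN7 was chosen after its values were seen. For likeness, the 2 genes of highest r were taken. As alternatives, the pseudocount was set to 0.1, the filter was dropped or raised to a mean of 5 TPM, and libraries were scaled by median-of-ratios. The prior was also fitted untrended, replicate number was added as a block, each line was fitted alone, voom was run on the recovered reads, each library was left out in turn, and, chosen after seeing the data, an average without KMS-12-PE.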

Additional observations from a re-analysis of the deposited data

Results flagged for a closer look

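For 8 of the 10 members the siIRF4 effect differed between lines by the limma test of the difference itself. Over all genes tested, 53.3% had an effect that differed among the 4 lines. The single differences were called for 2.47% of all genes (MM1S minus MM1R), 23.0% (KMS-12-PE minus KMS-12-BM) and 44.9% (MM1 minus KMS-12 lines). The values are given on the log2(TPM + 1) scale. For CD9 the difference was 0.40 for MM1S minus MM1R, -2.32 for KMS-12-PE minus KMS-12-BM and 1.10 for MM1 minus KMS-12 lines. For CD82 it was -1.97 between the KMS-12 lines and 1.54 between MM1 and KMS-12 lines. CD53 had 1.20 between the KMS-12 lines. Between MM1 and KMS-12 lines the difference was 0.88 for CD37, -0.13 for CD63, -0.34 for CD151, -0.24 for TSPAN3 and -0.61 for TSPAN33. The large values of CD9 and CD82 rest on KMS-12-PE, where both genes were under 8 TPM in every library.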

How the results depend on the processing

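Over the alternatives other than leaving out a library, 644 of 680 values kept their direction and their side of the threshold, 21 gained a call, 11 lost one and 4 changed sign. The sign changes were the average of CD9, at 0.43 without KMS-12-PE, the average of CD82, at -0.13 with a pseudocount of 0.1 and -0.16 with voom, and TSPAN3 in MM1S minus MM1R, at -0.00388 with median-of-ratios scaling. All but that of CD9 were uncalled in both settings. Without 1 library, 11 values changed sign, none of them called: CD81 in MM1R (range without 1 library -0.0237 to 0.406) and in MM1S (-0.173 to 0.0348), TSPAN3 in KMS-12-PE (-0.0223 to 0.0412), CD37 and TSPAN3 in MM1S minus MM1R (-0.0441 to 0.194 and -0.0139 to 0.0513) and TSPAN14 in MM1 minus KMS-12 lines (-0.0118 to 0.0422). In KMS-12-BM 2 members were called, but 1 with a replicate block, 4 in a fit of that line alone and 4 with voom, and 1 to 3 without 1 library. All genes called there numbered 2650, and 1766 to 2811 without 1 library. For MM1S minus MM1R 374 genes were called, 171 with a pseudocount of 0.1, 183 with a replicate block, 579 with voom and 215 to 446 without 1 library. The members called in that difference went from 1 to 0 with a pseudocount of 0.1 and with a replicate block, 2 with voom and 1 to 2 without 1 library. For KMS-12-PE minus KMS-12-BM 3 members became 5 with a pseudocount of 0.1, 5 with median-of-ratios scaling, 6 with voom and 3 to 5 without 1 library. The cause of these shifts was not tested. Deviations of same-numbered libraries of a line were hardly correlated (-0.0878 to 0.0861). With 3 libraries per group these values cannot show whether such libraries were handled together, and the labels give them only a number in common. With the replicate block TSPAN3 was not called on average (adjusted p = 0.0561) or in KMS-12-BM (0.0829), and CD9 was not called in MM1S minus MM1R (0.0506). Low reads limit CD37, CD82 and TSPAN14 in KMS-12-PE.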
